A study of Mus musculus with 2 samples.

Results

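The 10 genes described here encode forkhead transcription factors of the ureteric mesenchyme, Foxf1, Foxf2, Foxl1, Foxd1, Foxd2, Foxc1, Foxc2, Foxs1, Foxp1 and Foxp2. They were found on the array by gene name, as 17 of the 39428 probes and as 10 of the 30011 gene names, and the brightest probe over the 4 channels stood for each gene. Ureters of newborn NMRI wildtype mice (postnatal day 0) were explanted and cultured for 18 h with 10 µM cyclopamine, an inhibitor of the SHH signal transducer SMO, or with the solvent DMF at 1 in 1000 as control. RNA of pooled ureters was compared on 2 two-colour arrays. Replicate 1 carried female pools with the control in green (AlexaFluor555) and cyclopamine in red (AlexaFluor647), and replicate 2 carried male pools with the dyes swapped. Sex, dye orientation and replicate therefore cannot be told apart. One label field (the source name of the second channel) names IWP-2 instead of cyclopamine. All other label fields name cyclopamine, which was followed here. The solvent is DMF in the labels, whereas the study's methods name ethanol for cyclopamine, and the label was followed. RNA of whole ureters does not show in which cells a gene was expressed, so the assignment of the genes to the mesenchyme could not be checked on these arrays.

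Forkhead factors bind DNA through a winged helix domain and act in many mesenchymal tissues. Sonic hedgehog (SHH) is secreted by the ureteric epithelium, and its receptor PTCH1 and transducer SMO control GLI transcription factors in the adjacent mesenchyme. Foxf1, Foxf2 and Foxl1 are known as hedgehog-responsive genes of the mesenchyme around endodermal epithelia, and Foxf1 acts with BMP4 in the smooth muscle programme of the ureter.

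In cyclopamine-treated ureters Foxl1 and Foxf1 RNA fell, Foxl1 by the larger factor. Because the 10 genes were chosen with earlier results of these data known, their counts below are no independent evidence of direction. Among the 10 genes, 7 were lower on both arrays (Foxl1, Foxf1, Foxd1, Foxd2, Foxf2, Foxs1 and Foxc2), against 28.9% of the 19398 genes tested. None of the 10 was higher on both arrays by its brightest probe, against 28.6% of genes tested. The other 3 genes (Foxc1, Foxp1 and Foxp2) had ratios of opposite sign on the 2 arrays. In a linear model over all probes (limma, Benjamini-Hochberg adjusted p under 0.05), 2 of the 10 were lower, against 0.866% of genes tested, and 0 were higher, against 0.438%. At an unadjusted limma p under 0.05, 6 were lower, against 4.81% of genes tested, and 0 were higher, against 4.24%. A filter without a test asked for a control intensity over 100 and a shift of 1.5-fold or more, alike in sign on the 2 arrays. By this filter 4 of the 10 were lower (Foxl1, Foxf1, Foxd1 and Foxd2), against 0.63% of the 13661 genes with enough intensity. None was higher by the filter, against 0.212%. Over the 10 genes the mean log2 ratio had a median of -0.59, and over all genes tested one of -0.01. In RNA of a whole organ, fewer cells of a type and less RNA per cell cannot be told apart.

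**Figure D1:**
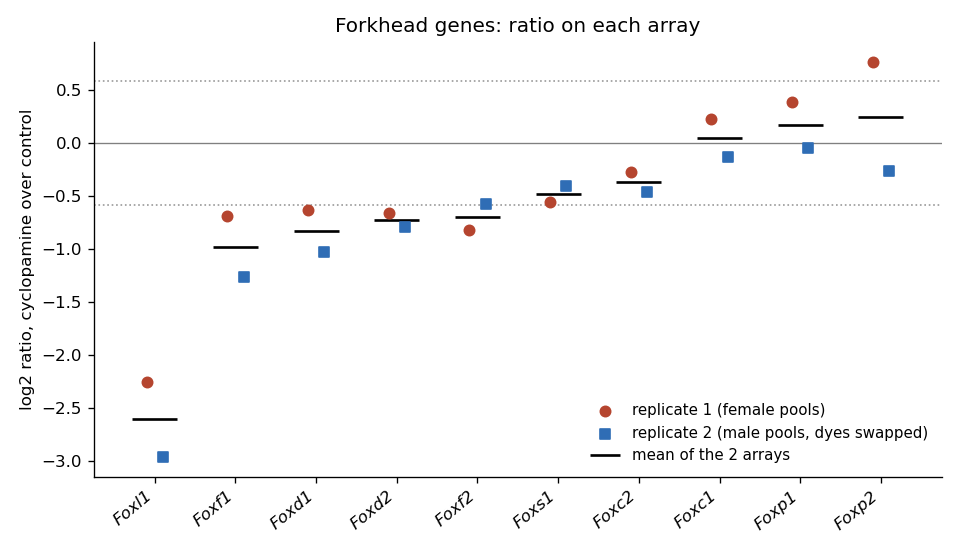
Log2 ratio of cyclopamine over control (vertical axis) for each of the 10 forkhead genes, with a circle for replicate 1, a square for replicate 2 and a bar for their mean. Dotted lines mark a change of 1.5-fold. Foxl1 lies at -2.25 and -2.96, Foxf1, Foxd1 and Foxd2 lie beyond the lower dotted line on both arrays, and Foxc1, Foxp1 and Foxp2 lie on both sides of 0.

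Foxl1 encodes a factor of subepithelial mesenchymal cells that is known as a hedgehog target in the gut. On replicate 1 its processed intensity was 1768 for control and 371 for cyclopamine, and on replicate 2 it was 273 and 35.0. Both cyclopamine values lay below the control value of the same array, and all 4 channels were well above background. The ratio was 4.77-fold lower on replicate 1 and 7.80-fold lower on replicate 2. On the log2 scale the mean was -2.61 ± 0.50 (SD, n = 2), with a limma adjusted p of 5.40e-12. Among the 13661 genes past the intensity limit this was rank 2 from the lowest mean. The spots of the probe, 4 on each array, ran from -2.28 to -2.18 on replicate 1 and from -3.03 to -2.91 on replicate 2.

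Foxf1 is the forkhead factor best known in ureteric mesenchyme, where it is placed between SHH and BMP4. The brighter of its 2 probes had intensities of 20682 in the control and 12865 with cyclopamine on replicate 1, and of 4526 and 1882 on replicate 2. The fall was 1.61-fold in the female pools and 2.40-fold in the male pools. The log2 mean was -0.98 ± 0.41 (SD, n = 2), at a limma adjusted p of 0.0127. The other probe, which lies 1.263 kb upstream, gave log2 ratios of -0.64 and -1.12, so both probes were lower on both arrays. Its mean was -0.88, with a limma adjusted p of 0.0316.

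Probe positions of these genes are those of the array annotation (mouse build mm9), which names no exon or UTR for them. The stretches below are the first 30 of the 60 bases of each probe, shown because the result on Foxl1 and on the Foxf paralogs rests on them.
Foxl1 (chr8:123654402-123654461, plus strand): ggtccacagtgatgtctcacaacaactaag
Foxf1, main probe (chr8:123611944-123612003, plus strand): cctcctttctgcactgtataaaagggacaa
Foxf1, other probe (chr8:123610681-123610740, plus strand): ttcaatgccatggcctcttcttctatgcat
Foxf2 (chr13:31723139-31723198, plus strand): ttttatgatcttcgtatactcacacttcgc
No run of 14 or more bases was common to a Foxf1 or Foxf2 probe and a probe of any other gene on the array. The Foxl1 probe shared a run of 17 bases, outside the stretch shown, with a probe of Gm38405. That probe was not well above background in any channel.

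Foxf2 is the paralog of Foxf1. Its intensities were 524 and 297 on replicate 1, and 109.7 and 73.7 on replicate 2, for control and cyclopamine. It was lower on both arrays, 1.76-fold and 1.49-fold, so it lay just outside the filter on replicate 2. The mean log2 ratio of -0.70 ± 0.17 (SD, n = 2) did not pass the limma test (adjusted p 0.147). The log2 ratio of Foxf1 minus that of Foxf2 was 0.13 in the female pools and -0.69 in the male pools, a difference between the paralogs that was not tested.

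**Figure D2:**
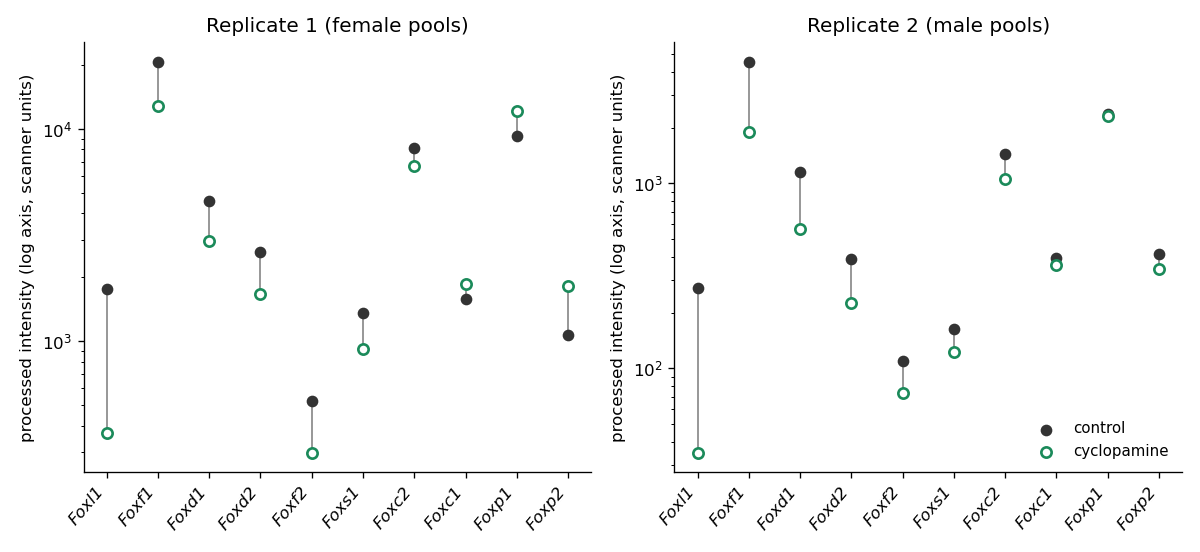
Processed intensity (log axis, scanner units) of the brightest probe of each gene in the control (filled) and cyclopamine (open) channels of replicate 1 and replicate 2, joined by a line. Heights are comparable only within a gene and an array. The line runs downward from control to cyclopamine on both arrays for the 7 genes on the left, with the longest line for Foxl1 (1768 to 371 and 273 to 35.0).

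Foxd1 and Foxd2 form another pair of paralogs, and Foxd1 is known as a marker of the stroma of the developing kidney. Foxd1 had intensities of 4561 in the control and 2952 with cyclopamine on replicate 1, and of 1158 and 567 on replicate 2. It was 1.54-fold lower in the female pools and 2.04-fold lower in the male pools. Its mean log2 ratio was -0.83 ± 0.28 (SD, n = 2), and the limma adjusted p of 0.0502 lay just outside the limit. Foxd2 had intensities of 2626 and 1663 on replicate 1, and of 392 and 226 on replicate 2. The fall was 1.58-fold and 1.73-fold, with a mean of -0.73 ± 0.09 (SD, n = 2) on the log2 scale (limma adjusted p 0.117). Foxd1 and Foxd2 thus passed the filter and did not pass the model. Their log2 ratios differed by 0.03 on replicate 1 and by -0.24 on replicate 2 (Foxd1 minus Foxd2).

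The transcript Foxd2os, antisense to Foxd2 by its name and chosen after its values were seen, has a probe 9.893 kb from that of Foxd2 on chromosome 4. Its intensities were 619.7 in the control and 294 with cyclopamine on replicate 1, and 83.5 and 46.2 on replicate 2. Both ratios were below 0, and their log2 mean was -0.96 ± 0.16 (SD, n = 2), with a limma adjusted p of 0.0126. The control on replicate 2 lay under the intensity limit of 100, so Foxd2os was outside the filter.

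Foxs1 and Foxc2 were lower on both arrays by less than 1.5-fold. Foxs1, a forkhead gene known from perivascular cells and sensory neurons, had intensities of 1352 and 919.6 on replicate 1 and of 163 and 123 on replicate 2. The log2 mean was -0.48 ± 0.11 (SD, n = 2), at a limma adjusted p of 0.493. Foxc2, a factor of kidney, vessel and skeletal mesenchyme, had intensities of 8087 and 6716 on replicate 1 and of 1445 and 1049 on replicate 2. The log2 mean was -0.37 ± 0.14 (SD, n = 2), at a limma adjusted p of 0.648 and with a 95% interval from the model of -0.82 to 0.09.

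Foxc1, the paralog of Foxc2, did not move one way. Its intensities were 1584 in the control and 1857 with cyclopamine on replicate 1, and 393 and 360.2 on replicate 2. The log2 ratios were 0.23 and -0.13, and the 95% interval of the limma mean ran from -0.40 to 0.51. Foxc1 minus Foxc2 in log2 ratio was 0.50 on replicate 1 and 0.34 on replicate 2, so Foxc2 was the lower of the pair on both arrays, a difference that was not tested.

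Foxp1 and Foxp2 encode repressors of a separate forkhead class and are the long genes of the set. Foxp1 had 5 probes, of which 4 were tested and 1 did not meet the rule on background. The main Foxp1 probe had intensities of 9302 and 12164 on replicate 1 and of 2361 and 2297 on replicate 2, with log2 ratios of 0.39 and -0.04. The other 3 tested probes gave log2 ratios from 0.31 to 0.72 on replicate 1 and from -0.11 to 0.34 on replicate 2. Of the 4 tested probes, 2 were above 0 on both arrays and 2 had ratios of opposite sign. The main Foxp2 probe had intensities of 1069 and 1820.0 on replicate 1 and of 415 and 345 on replicate 2, with log2 ratios of 0.77 and -0.26. A second Foxp2 probe gave 0.17 and -0.36, and the remaining probe was not well above background in any channel. No probe of either gene passed the limma test. The 95% interval of the limma mean was -0.28 to 0.63 for Foxp1 and -0.22 to 0.73 for Foxp2.

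Ordered by their mean log2 ratios, the 10 genes were Foxl1, Foxf1, Foxd1, Foxd2, Foxf2, Foxs1, Foxc2, Foxc1, Foxp1 and Foxp2. The gap of 1.63 between Foxl1 and Foxf1 was larger than the SD of either gene, and it was 1.57 on replicate 1 and 1.70 on replicate 2. From Foxf1 to Foxf2 each gene lay closer to the next (0.15, 0.10 and 0.03) than the larger SD of the pair, so their order lay within the spread between the arrays. The gap from Foxf2 to Foxs1 (0.22) and that from Foxc2 to Foxc1 (0.42) were larger than both SDs. Foxs1 and Foxc2, and Foxc1, Foxp1 and Foxp2, were again closer than their spread.

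Foxf1, Foxc2 and Foxl1 lie within 42.458 kb on chromosome 8, and the genes around them were read by position. Fendrr, a long noncoding RNA transcribed away from Foxf1, has its probe 22.449 kb upstream of the main Foxf1 probe. Fendrr had intensities of 288 and 143 on replicate 1 and of 47.6 and 29.9 on replicate 2, for control and cyclopamine. Both ratios were below 0, and their log2 mean was -0.84 ± 0.24 (SD, n = 2), with a limma adjusted p of 0.0434. Mthfsd, which lies between Foxf1 and Foxc2 and encodes a protein with a folate enzyme domain, gave log2 ratios of -0.76 and 0.02 with a probe 9.910 kb downstream. A second Mthfsd probe gave -0.44 and -0.08, and neither passed the limma test (adjusted p 0.657 and 0.756). Foxc2 followed 30.749 kb downstream and Foxl1 42.458 kb downstream. Along the locus the mean log2 ratio was thus -0.84 at Fendrr, -0.98 at Foxf1, -0.37 at Foxc2 and -2.61 at Foxl1. At Mthfsd it was -0.26 by the second probe, the main one by brightness, and -0.37 by the first.

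**Figure D3:**
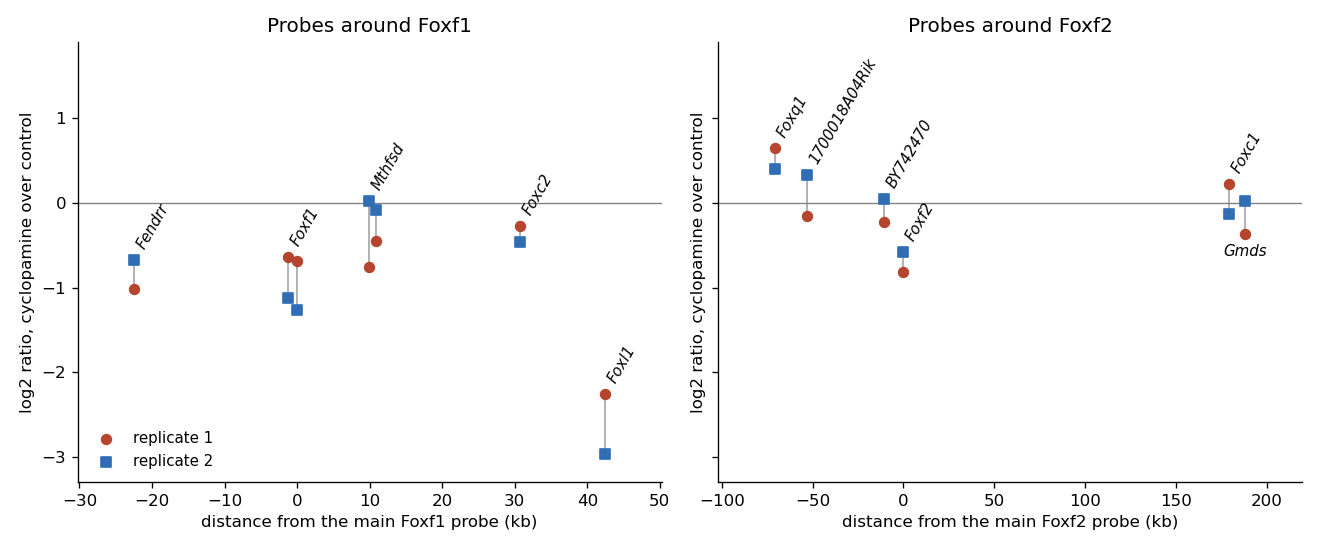
Log2 ratio of cyclopamine over control against the distance in kb from the main probe of Foxf1 (left) and Foxf2 (right), for each tested probe within 250 kb, with a circle for replicate 1 and a square for replicate 2. Around Foxf1 the Fendrr, Foxf1 and Foxl1 probes lie below -0.6 on both arrays. Around Foxf2, Foxf2 is the only tested gene below 0 on both arrays.

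Foxf2 and Foxc1 lie 179.284 kb apart on chromosome 13, with Foxq1 70.933 kb on the other side of Foxf2. Foxq1, a forkhead gene known from epithelia, had intensities of 25006 and 39271 on replicate 1 and of 6525 and 8600.4 on replicate 2. Its log2 ratios were 0.65 and 0.40, opposite to those of Foxf2, but it did not pass the limma test (adjusted p 0.403). The 3 other tested genes of this interval (1700018A04Rik, BY742470 and Gmds) had ratios of opposite sign on the 2 arrays. A further pair, G630018N14Rik and 4930548F15Rik, was not well above background.

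Promoter sequences of RefSeq (build GRCm38.p6) were at hand for 5 of the 10 genes, Foxf2, Foxc1, Foxd1, Foxd2 and Foxp1, and for Fendrr. The 250 bases before the start are shown for the neighbours Foxf2 and Foxc1, for the pair Foxd1 and Foxd2, and for Fendrr, since their ratios are compared above. Capitals mark matches, on either strand, to a GC box (GGGCGG), the CCAAT box, a forkhead motif (TGTTTAC) or a GLI motif (GACCACCCA). None of the 4 motifs overlaps another in these sequences.
Foxf2 (chr13:31625566-31625815, plus strand): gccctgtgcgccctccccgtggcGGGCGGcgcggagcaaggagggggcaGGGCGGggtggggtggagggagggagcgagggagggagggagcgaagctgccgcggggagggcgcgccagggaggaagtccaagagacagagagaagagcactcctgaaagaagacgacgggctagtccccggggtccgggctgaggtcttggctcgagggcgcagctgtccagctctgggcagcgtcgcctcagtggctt
Foxc1 (chr13:31806396-31806645, plus strand): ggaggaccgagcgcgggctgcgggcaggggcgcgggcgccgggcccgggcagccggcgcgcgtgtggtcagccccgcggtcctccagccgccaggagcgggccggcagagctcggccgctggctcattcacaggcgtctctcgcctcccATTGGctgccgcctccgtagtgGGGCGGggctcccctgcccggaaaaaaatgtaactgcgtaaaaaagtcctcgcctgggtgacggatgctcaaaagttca
Foxd1 (chr13:98353995-98354244, plus strand): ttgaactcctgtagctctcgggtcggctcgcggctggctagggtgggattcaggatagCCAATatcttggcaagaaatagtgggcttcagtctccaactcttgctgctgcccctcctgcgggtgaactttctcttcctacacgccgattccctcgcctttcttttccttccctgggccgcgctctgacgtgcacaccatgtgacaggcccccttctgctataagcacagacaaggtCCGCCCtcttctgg
Foxd2 (chr4:114908899-114909148, minus strand): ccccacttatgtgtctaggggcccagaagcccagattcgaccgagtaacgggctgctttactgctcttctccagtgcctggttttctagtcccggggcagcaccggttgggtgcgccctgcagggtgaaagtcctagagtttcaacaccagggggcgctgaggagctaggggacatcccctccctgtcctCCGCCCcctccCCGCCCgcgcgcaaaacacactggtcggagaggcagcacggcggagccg
Fendrr (chr8:121083111-121083360, minus strand): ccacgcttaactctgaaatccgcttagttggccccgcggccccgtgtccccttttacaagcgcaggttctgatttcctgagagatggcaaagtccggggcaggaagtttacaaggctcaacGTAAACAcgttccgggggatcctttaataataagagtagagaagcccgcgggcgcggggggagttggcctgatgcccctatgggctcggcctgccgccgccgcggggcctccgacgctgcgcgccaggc
A GC box stood in the windows of Foxf2 (2 matches), Foxc1 (1), Foxd1 (1) and Foxd2 (2), in 2 of the 3 Foxp1 windows (not shown), and in 32.7% of the 32851 promoter windows of this length. The CCAAT box stood in those of Foxc1 and Foxd1, in 1 Foxp1 window, and in 33.8% of all windows. The Fendrr window held 1 forkhead motif, 129 bases before the start, as did 3.17% of all windows. The GLI motif was in 0.225% of all windows and in none of those of the 5 genes or of Fendrr, which says only that these letters are not in these windows. The share of G or C was 71.6% in the Foxf2 window and 70.8% in the Foxc1 window, and the median over all windows was 52.4%.

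The rest of the forkhead family was compared with the 10 genes on the same arrays. The array held 34 other forkhead genes, of which 21 were tested and 13 did not meet the rule on background (well above it in 1 group on both arrays). Of the 21, 4 were lower on both arrays and 11 were higher on both arrays, against 7 and 0 of the 10. Over all genes tested the shares were 28.9% and 28.6%. The median mean log2 ratio of the 21 was 0.18, against -0.59 for the 10 genes and -0.01 for all genes tested. The difference between the 21 and the 10 was not tested. The 10 genes were chosen with earlier results of these data known, so this contrast is no independent evidence of direction. None of these medians was corrected for the trend along gene length described below. Foxe1, known from thyroid development, was the only one of the 21 past the limma test. Foxe1 had intensities of 118 and 36.9 on replicate 1 and of 14.4 and 3.77 on replicate 2, the last not well above background. The replicate 2 ratio of -1.93 is therefore no exact value, and the log2 mean of -1.80 (limma adjusted p 1.77e-07) rests on 1 fully measured array. On that array the log2 ratio was -1.67. A second Foxe1 probe was not well above background in any channel. No other forkhead gene passed the filter.

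**Figure D4:**
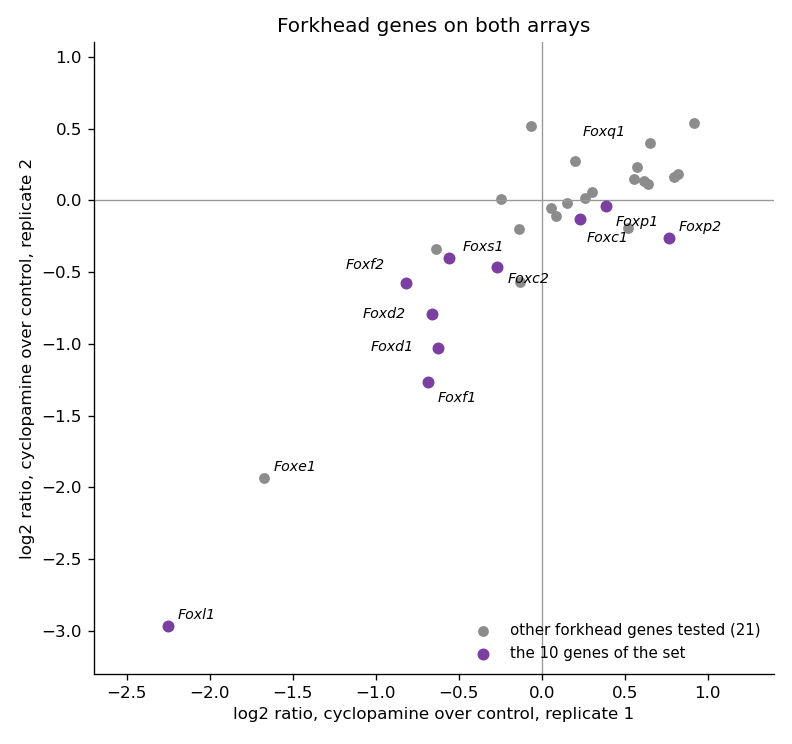
Log2 ratio of cyclopamine over control on replicate 1 (horizontal axis) and replicate 2 (vertical axis) for the 10 forkhead genes (purple) and the 21 other forkhead genes tested (grey). Foxl1 lies at -2.25 and -2.96, Foxe1 lies at -1.67 and -1.93 with its cyclopamine signal on replicate 2 not well above background, 7 purple points lie below 0 on both axes, and 11 grey points lie above 0 on both.

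The hedgehog pathway itself was read beside the 10 genes. Of the feedback targets read here, Gli1 (a transcriptional effector), Ptch1 (the receptor) and Hhip (a ligand-binding inhibitor) were lower by limma. Gli1 had log2 ratios of -1.83 and -2.09 (limma adjusted p 1.76e-08), and Ptch1 of -1.13 and -1.49 (limma adjusted p 0.000248). Hhip was uneven, at -0.31 and -1.99 (limma adjusted p 0.00683). The log2 ratios of Foxl1 lay below those of Gli1 on both arrays and those of Foxf1 lay above those of Ptch1, differences that were not tested. Of the 8 genes of the ligand and its transduction (Shh, Smo, Sufu, Gli2, Gli3, Boc, Cdon and Gas1), 0 passed limma in either direction, with mean log2 ratios from -0.17 to 0.60. Shh itself gave 0.13 and 0.22.

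Of the 8 genes that are partners of FOXF1 or belong to the smooth muscle programme (Bmp4, Gata6, Myocd, Acta2, Tagln, Myh11, Cnn1 and Smtn), 0 passed limma. Bmp4, the signal placed downstream of FOXF1, gave log2 ratios of -0.83 and -0.78 (limma adjusted p 0.0589) and was the only one of the 8 past the filter. The ratios of Foxf1 were -0.68 and -1.27, and those of Foxd2 were -0.66 and -0.79. Gata6 (0.75 and -0.13) and Myocd (0.65 and -0.30) had ratios of opposite sign. Of the contractile genes, Cnn1 (-0.26 and -0.84), Acta2 (-0.06 and -0.92) and Tagln (-0.19 and -0.32) had both ratios below 0, and Smtn (0.31 and -0.31) and Myh11 (0.35 and -0.40) had ratios of opposite sign.

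Markers of the cells in the explants were read for the same arrays. Of the 5 lamina propria genes, which the study chose on these samples and which are no independent evidence of direction, 5 were lower on both arrays and 3 passed limma. Of the 8 urothelial, 5 endothelial, 5 pericyte, 5 leukocyte, 3 glial and 6 kidney markers, 0 passed limma. The summed intensity of the urothelial markers was 335317 in the control and 363798 with cyclopamine on replicate 1, and 76986 and 82175 on replicate 2. The sums on replicate 1 were 45215 and 67566 for endothelium and 53956 and 84139 for pericytes, and on replicate 2 they were 12386 and 10823 for endothelium and 17419 and 16987 for pericytes. Single bright probes weigh most in such sums: Pdgfrb alone went from 19028 to 42550 on replicate 1, whereas the log2 ratio there was 0.04 for Rgs5 and -0.35 for the endothelial marker Emcn. Leukocyte markers summed to 12235 and 13054 on replicate 1 and to 2247 and 2075 on replicate 2, glial markers to 13927 and 9117 on replicate 1 and to 2335 and 2814 on replicate 2, and kidney markers to 809.7 and 853 on replicate 1 and to 134 and 184 on replicate 2. The glial marker S100b had log2 ratios of -0.62 and -0.59. The kidney markers Umod, Slc12a1, Slc34a1 and Nphs1 were not well above background. The part of cell composition in the forkhead ratios was not tested.

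Gene length moved with the ratios on replicate 1. Across the 22462 tested probes with a genomic length, which are not independent, Spearman's rho between length and log2 ratio was 0.44 on replicate 1 and 0.04 on replicate 2. Of the 10 forkhead genes, 8 are short (1.31 to 5.59 kb), and Foxp1 (597 kb) and Foxp2 (541 kb) are long. After this trend was removed on each array, the log2 ratios of Foxl1 were -1.95 and -2.92 and those of Foxf1 were -0.40 and -1.23. Both still passed limma (adjusted p 1.38e-10 and 0.0304). Foxd1 then gave -0.30 and -0.99 and Foxd2 -0.34 and -0.75, and only Foxl1 stayed past the filter, 1 of 10 in place of 4. Over all genes the filter then gave 74 lower in place of 86. Foxc2 then had ratios of opposite sign (0.05 and -0.42), which left 6 of 10 lower on both arrays. Foxp1 then had both ratios above 0 (0.11 and 0.12), so 1 of 10 was higher on both arrays. The median of the mean log2 ratio over the 10 genes was then -0.40, against -0.59 as measured. On replicate 1 the median went from -0.59 to -0.24, and on replicate 2 from -0.52 to -0.48.

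**Figure D5:**
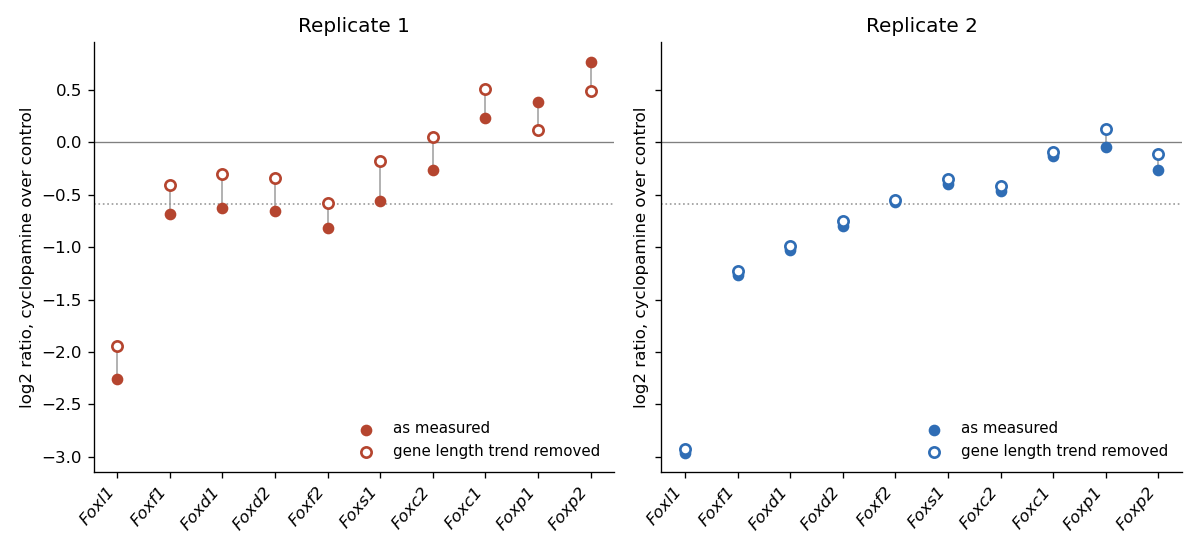
Log2 ratio of cyclopamine over control for the 10 forkhead genes on replicate 1 (left) and replicate 2 (right), as measured (filled) and after removal of the trend along gene length (open). The dotted line marks a fall of 1.5-fold. On replicate 1 the short genes move up, Foxf1 from -0.68 to -0.40. On replicate 2 the filled and open points nearly coincide for the short genes. Foxp1 moves up there from -0.04 to 0.12 and Foxp2 from -0.26 to -0.11.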

How the data were processed

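RNA of pooled ureters was hybridised to 2 dye-swapped Agilent arrays. The deposited scanner files give an intensity and a log10 ratio for each spot, which the authors obtained with Agilent Feature Extraction. The version is 12.2.0.7 in the headers and 10.7.3.1 in the submitters' processing notes. This software subtracted the background and balanced the dyes (linear and LOWESS steps) before deposit. The authors' deposited series table holds a score per probe, a signed fold change rounded to 1 decimal by its values. Background and outlier flags are other deposited software output.

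Control spots and outlier spots (2.89% and 3.15%) were left out, up to 4 spots of a probe were averaged on the log2 scale, and ratios are given as cyclopamine over control. At the 75th percentile the control intensity was 3338 on replicate 1 and 628 on replicate 2, so the arrays had no common scale. Names followed the RefSeq accession for 28322 probes. Probes were tested where at least 0.5 of their spots were well above background in 1 group on both arrays (25975 probes; limma 3.58.1, R 4.3.3, lmFit and eBayes on ratios signed for the dye, Benjamini-Hochberg over all). Each probe has 1 residual degree of freedom, so the error comes largely from the prior over all probes, and 2 arrays bound the precision. P-values set the mean of 2 pairs of pools against this shared error, and reflect the spread of a single gene only in small part. The filter follows the limits of the study. The limma step was tested on simulated data.

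The 10 genes and the lists were chosen with earlier results of these data known. Named were the 10 genes with every probe, other forkhead genes past limma or the filter, genes within 250 kb of Foxf1 or Foxf2, and the hedgehog and FOXF1 lists; Foxd2os is an exception. Some list genes are not reported here. Alternatives were normexp background (offset 50 or 10), the series table, no dim filter, an intensity trend, outlier spots kept, 4 separate channels, removal of the length trend, the median over probes, other limits and leaving out a replicate.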

Additional observations from a re-analysis of the deposited data

Results flagged for a closer look

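By their brightest probes, Foxc1, Foxp1 and Foxp2 moved in opposite directions in the female pools of replicate 1 and the male pools of replicate 2. The log2 ratios of cyclopamine over control were 0.23 and -0.13 for Foxc1, 0.39 and -0.0400 for Foxp1, and 0.77 and -0.26 for Foxp2. Of the 4 tested Foxp1 probes, 2 were above 0 on both arrays, and after removal of the length trend the main one gave 0.11 and 0.12. By the brightest probe of each gene the red channel was the brighter one on both arrays. The difference between the pools was not tested, as each sex had 1 array only, and sex, dye orientation and replicate cannot be told apart.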

How the results depend on the processing

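Direction was kept by the 7 genes lower on both arrays under all alternatives with both arrays, except that Foxc2 had opposite signs after removal of the length trend. The mean log2 ratio ran from -2.62 to -2.25 for Foxl1, and the Foxf1 mean stayed at or below -0.82, over the 10 settings with both arrays. By limma 2 genes were lower (Foxl1 and Foxf1). Over all tested probes 200 were lower in this main setting. With normexp and an offset of 50 the count was 1 gene (Foxl1), against 45 of all probes. It was 0 with the series table values, and 0 in the fit of the 4 channels one by one, which has no replicate block. Over all tested probes the number lower was also 0 with the series table values and 0 with the 4 channels. At an unadjusted limma p under 0.05 the series table values gave 4 lower genes (Foxf2, Foxl1, Foxd2 and Foxs1), without Foxf1. The 4 separate channels gave 5 (Foxf1, Foxf2, Foxl1, Foxd1 and Foxd2), and the cause was not tested. Foxd1 (adjusted p 0.0502) passed under 4 alternatives, with limma adjusted p from 0.0276 to 0.0404. By the filter 4 genes were lower, against 86 of all genes. After removal of the length trend 1 was lower (Foxl1), against 74 of all genes, and at 2-fold 1 (Foxl1), against 20. Leaving out a replicate gave 4 to 5 lower genes (Foxf2 added on replicate 1 alone) and 0 to 1 higher (Foxp2 on replicate 1 alone). Over all genes past the intensity limit, replicate 1 alone gave 10.3% lower and 8.06% higher, and replicate 2 alone 1.68% and 0.585%. Foxp1 was higher on both arrays after removal of the length trend and with the median over its probes. With 1 array left limma had no residual degree of freedom, so that alternative has no test. The numbers that labels share are those of the arrays, on which control and cyclopamine are paired. The fit without that pairing is the fit on separate channels above.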
